A study of Oryza sativa and Arabidopsis thaliana with 24 samples.

Results

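Plant mitochondria carry their own genome and translate it with a mixed set of tRNAs. The tRNAs described here are those with a listed locus on the mitochondrial genome and no locus on the plastid genome: 34 of the 531 tRNA sequences listed in both species, of which 19 of 232 were from Arabidopsis thaliana and 15 of 299 from rice (Oryza sativa). They were measured in 24 libraries of 12 groups with 2 biological replicates each, by the study's own account. The Arabidopsis plants were untreated, were grown in soil at 23 °C under long days, and gave flower, silique (the seed pod), rosette leaf, stem leaf and stem. The rice plants were grown in nutrient solution at 28 °C. Their groups were untreated panicle (the flowering branch), and root and shoot of seedlings kept in a cold room at 4 °C for 8 h, in 300 mM NaCl for 8 h, or under control conditions. The labels name no ecotype, cultivar or plant age for any group, and do not say how many plants were pooled in a library. RNA was pretreated with a kit for tRNA fragments before small RNA libraries were made. There were 3 kinds of value for each tRNA: its tRNA signal (reads per tRNA), its tRF total (reads of tRNA-derived fragments, tRFs, summed over the tRNA) and its individual fragments, each with its sequence. All are in reads scaled to the size of the library (RPM), and errors are SD over n = 2 libraries unless named SE.

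In plants the mitochondrial genome encodes only some of the tRNAs that the organelle needs, and the others are nuclear tRNAs brought in from the cytosol. The encoded ones are of mixed descent: native genes go back to the bacterial ancestor of the organelle, while plastid-like genes came in with copied plastid DNA and still resemble the plastid tRNA of the same anticodon. After transcription an enzyme adds the bases CCA to the 3′ end of each tRNA, where the amino acid is later attached. Nucleases can cut a tRNA into fragments, named tRF-5 and tRF-3 for pieces from the 5′ and the 3′ end, and tiRNAs for longer pieces cut at the anticodon loop. A fragment that ends in CCA therefore comes from a tRNA that had been processed at its 3′ end.

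The 34 tRNAs covered 15 anticodons in Arabidopsis and 12 of the same 15 in rice. Both species had Asp-GTC, Cys-GCA, Gln-TTG, Glu-TTC, Lys-TTT, Pro-TGG, Ser-GCT, Ser-GGA, Ser-TGA, Trp-CCA, Tyr-GTA and 3 tRNAs with the anticodon CAT. RefSeq names the Arabidopsis CAT tRNAs as the initiator (trnfM, at_tR142), the elongator methionine tRNA (trnM, at_tR136) and an isoleucine tRNA (at_tR103), whose first anticodon base is modified in the mature tRNA so that it reads an isoleucine codon. The nearest rice sequences were os_tR186 for the initiator, os_tR188 for the elongator and os_tR187 for the isoleucine tRNA. Asn-GTT, Gly-GCC and His-GTG were listed for Arabidopsis alone. Of 12 pairs of tRNAs that were at least 85% identical between the species, 5 were identical base for base (Lys, Glu, Pro, Trp and the elongator Met). At the same 85% limit against the plastid tRNAs of their own species, 6 of 19 Arabidopsis members were plastid-like (at_tR42 Asn, at_tR49 Asp, at_tR99 His, at_tR136 Met, at_tR183 Ser-GGA and at_tR205 Trp), as were 4 of 15 rice members (os_tR188 Met, os_tR224 Pro, os_tR244 Ser-GGA and os_tR274 Trp).

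The sequences that carry the main results follow, written 5′ to 3′ as the authors list them, with the anticodon in capitals and the added CCA at the end. They show the tyrosine tRNA of each species, which gave the largest part of the fragments unique to these tRNAs, the initiator, the isoleucine tRNA of rice, the glutamate tRNA shared by both species, the Arabidopsis glycine tRNA and the plastid-like asparagine tRNA.
Tyr-GTA of Arabidopsis, at_tR221: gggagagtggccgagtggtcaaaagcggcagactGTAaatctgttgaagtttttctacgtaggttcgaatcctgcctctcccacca
Tyr-GTA of rice, os_tR279: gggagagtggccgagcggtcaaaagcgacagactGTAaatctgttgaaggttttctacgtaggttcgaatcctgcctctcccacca
Initiator Met-CAT of Arabidopsis, at_tR142: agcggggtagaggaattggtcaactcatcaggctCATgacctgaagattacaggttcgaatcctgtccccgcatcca
Initiator-type Met-CAT of rice, os_tR186: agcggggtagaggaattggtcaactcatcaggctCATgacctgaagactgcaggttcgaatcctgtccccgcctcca
Isoleucine-type CAT of rice, os_tR187: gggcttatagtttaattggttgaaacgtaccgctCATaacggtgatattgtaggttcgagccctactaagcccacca
Glu-TTC of both species, at_tR81 and os_tR108: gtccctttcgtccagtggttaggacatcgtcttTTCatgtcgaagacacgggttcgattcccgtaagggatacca
Gly-GCC of Arabidopsis, at_tR91: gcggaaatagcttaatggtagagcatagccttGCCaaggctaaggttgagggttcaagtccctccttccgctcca
Asn-GTT of Arabidopsis, at_tR42: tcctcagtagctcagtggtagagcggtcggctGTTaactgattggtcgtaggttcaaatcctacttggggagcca
The Tyr tRNAs of the species were 96.4% identical and differed at 3 positions, counted from 1 at the 5′ end with the Arabidopsis base first: T16C, G28A and T50G. Their 3′ parts after position 50 were the same. The initiators were 96.0% identical, also with 3 differences.

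Fragments that the results turn on are shown next, again 5′ to 3′, with the terminal CCA in capitals where the fragment has it.
Tyr, 35 bases, positions 52 to 86: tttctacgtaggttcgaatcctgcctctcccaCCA
Tyr, 34 bases, positions 53 to 86: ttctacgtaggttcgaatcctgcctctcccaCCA
Tyr, 33 bases, positions 53 to 85: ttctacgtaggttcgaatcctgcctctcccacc
Gly, 20 bases, positions 56 to 75: aagtccctccttccgctCCA
Glu, 39 bases, positions 37 to 75: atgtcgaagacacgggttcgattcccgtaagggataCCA
Lys, 25 bases, positions 1 to 25: gggtgtatagctcagttggtagagc
Isoleucine-type CAT of rice, 33 bases, positions 45 to 77: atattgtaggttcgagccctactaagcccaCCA
Tyr of rice, 36 bases, positions 1 to 36: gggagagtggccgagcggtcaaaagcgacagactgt

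The origin of a read from these tRNAs was not always unique. In the TAIR10.1 assembly all 19 Arabidopsis sequences had an exact match on the mitochondrial genome, and RefSeq annotates a tRNA at that match for 17 of them; the exceptions were at_tR220 and at_tR222, both listed as Tyr-GTA. For 16 of the 19 an identical copy lay on chromosome 2 between 3255832 and 3503608, within a stretch known as a transfer of mitochondrial DNA to the nucleus, and the copies lacked only at_tR99, at_tR132 and at_tR222. The Tyr tRNA at_tR221, for example, matched chrM:44462-44544 and chr2:3497358-3497440 of TAIR10.1, both on the plus strand. Reads of mitochondrial and chromosome 2 transcripts cannot be told apart for those 16. The authors list no nuclear locus for any of the 19, and none of the 23 mitochondrial positions they list held the sequence in TAIR10.1, so the positions here come from the matches. In rice the authors list nuclear loci for 9 of 15 members, and 8 of these have one on chromosome 12. The rice table of tRNA signal held 8 members, all of which had nuclear loci, while the table of tRF totals held all 15.

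In reads recovered from the scaled values, the tRNA signal of a library came to between 19741 and 232097 in Arabidopsis, and between 20674 and 150441 in rice. The corresponding sums of tRF totals ran from 259630 to 1536470 for Arabidopsis and from 130822 to 880814 for rice. One read was worth 28.7 to 43.1 RPM of tRNA signal in silique and 16.9 to 25.1 RPM in stem, against at most 5.23 RPM in every other group, so the tRNA signal of silique and stem is coarse. In all 12 groups replicate 2 held more reads than replicate 1, by 1.48 to 1.57 times for tRNA signal and 1.57 to 1.62 times for tRF totals. Why this ratio was so even over the groups was not tested. SDs, SEs and adjusted p rest on the spread between libraries of the same group. Whether that holds the full spread between plants cannot be told from these data. The values of the rice tRFs are scaled to a total of which the tRFs made up 105504 to 146214 RPM, whereas in Arabidopsis they make up the whole total. Plastid tRNAs, the measure of organelle make-up available here, took 71.4 ± 0.0167% of tRNA signal in stem leaf, the highest mean of the 12 groups, and 3.43 ± 0.102% in rice control root, the lowest. Many nuclear tRNAs also differed between groups, so each count of members below is given with the percent called among all tRNAs or fragments tested. In brackets follows the count of members found once libraries were rescaled to equal medians of the nuclear tRNAs. The percents are from before rescaling. The bracketed counts have no such percent beside them and show only how the calls of members moved. In each comparison up to 3 called members with the largest folds were picked from those without overlap between the groups. The lack of overlap stated for them below therefore follows from that choice and is no separate result.

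As a share of the tRNA signal, mitochondrial tRNAs made up 4.84 ± 0.0473% in flower and 2.06 ± 0.150% in silique, against 1.61 ± 0.0318% in rosette leaf, 1.33 ± 0.0249% in stem leaf and 1.73 ± 2.07e-04% in stem. Flower was highest in both of its libraries. Of tRF totals they made up 0.329 ± 0.0207% in flower and 0.361 ± 0.0322% in silique, and 0.196 ± 0.0252%, 0.198 ± 0.00397% and 0.200 ± 0.0129% in rosette leaf, stem leaf and stem. Flower and silique overlapped there, and both stood above the 3 vegetative tissues. In silique most of that share was plastid-like (0.265 ± 0.0230%), and the other members made up 0.0963 ± 0.00918%, against 0.181 ± 0.0137% in flower. Asn at_tR42 alone held 2512 of the 2652 RPM of the plastid-like members in silique. In rice the share of tRF totals was 2.21 ± 0.0115% in panicle. It was 2.09 ± 0.0116% in cold root, 1.04 ± 0.0218% in salt root and 2.52 ± 0.108% in control root, and 1.05 ± 0.0277% in cold shoot, 0.992 ± 0.0254% in salt shoot and 1.45 ± 0.0193% in control shoot. Salt root thus held less than the other root groups, and control shoot more than the stressed shoots. These shares are sums over the members and were given no test. In tissue samples, fewer cells of a type and less RNA per cell cannot be told apart.

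Fragments unique to mitochondrial tRNAs came mainly from the 3′ side. Only fragments that match a member exactly and no other listed tRNA were used for this, 67 sequences from 10 tRNAs in Arabidopsis and 91 from 11 tRNAs in rice, all of which passed the filter on low values. Fragments of the 3′ side (tRF-3 and 3′ tiRNA) made up 94.1 ± 4.47% of their reads over the 10 Arabidopsis libraries (84.1 to 100%), against 15.3 ± 3.58% for fragments unique to plastid tRNAs and 2.25 ± 1.15% for those unique to nuclear tRNAs. The mitochondrial share was above both others in 10 of 10 libraries, and no range overlapped. In rice it was 83.7 ± 5.30% over 14 libraries (73.9 to 90.7%), against 69.0 ± 7.85% for plastid and 18.2 ± 2.46% for nuclear tRNAs. It was above nuclear tRNAs in 14 of 14 libraries and above plastid tRNAs in 12 of 14. The rice plastid set held 124 sequences, and 311 others that match both plastid and nuclear tRNAs exactly were left out. With the Tyr fragments left out, an alternative added after the values had been seen, the share was 89.9 ± 7.83% in Arabidopsis, still above both others in 10 of 10 libraries, and 58.9 ± 5.03% in rice, above plastid tRNAs in only 1 of 14. With fragments of up to 1 mismatch let in, the nuclear share was 8.72 ± 3.60% in Arabidopsis and 28.3 ± 5.89% in rice.

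**Figure D1:**
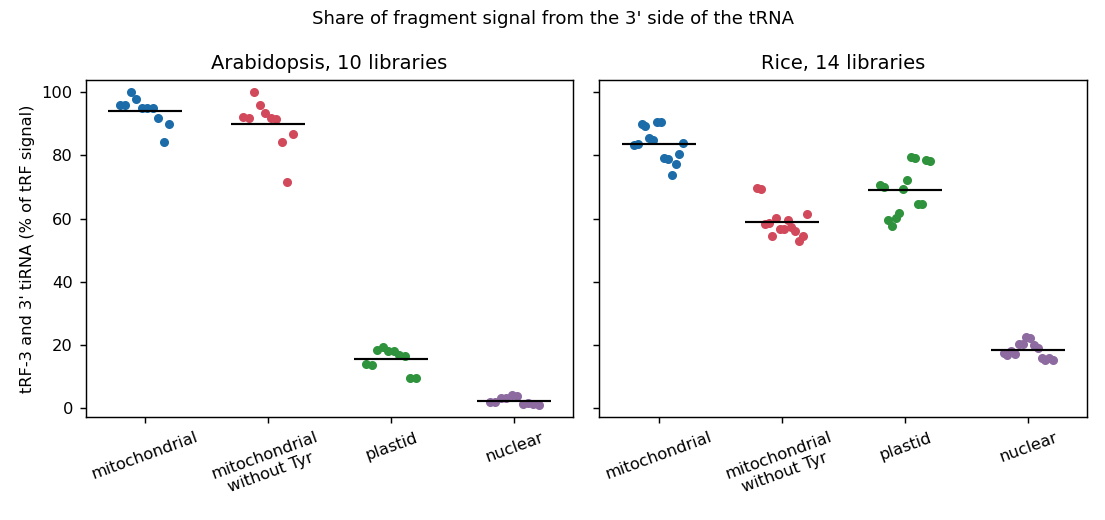
Percent of fragment reads that came from the 3′ side of the tRNA, per library, for fragments unique to mitochondrial tRNAs (with and without Tyr), plastid or nuclear tRNAs in Arabidopsis and rice; black lines are means. The mitochondrial libraries lie at 84.1 to 100% in Arabidopsis and 73.9 to 90.7% in rice; the nuclear libraries reach at most 3.91 and 22.3%.

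Most of these reads were long. Fragments of 34 to 40 bases made up 60.3% of the RPM of member-only fragments in Arabidopsis and 73.3% in rice, and those of 17 to 20 bases 15.7 and 4.08%; the shortest listed had 17 and the longest 40 bases. Of the sequences, 16 were identical in both species, 10 of them from the Tyr tRNA, and these 16 held 43.2% of the member-only RPM in Arabidopsis and 59.1% in rice.

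Among the member-only fragments those of the tyrosine tRNA led in both species, although in Arabidopsis Asn at_tR42 had the larger tRF total. Tyr gave 44.2% of the RPM of member-only fragments in Arabidopsis and 69.5% in rice, and 4 of the 5 most abundant Arabidopsis sequences and the 5 most abundant rice sequences were its 3′ pieces. The 35-base fragment printed above averaged 53.6 RPM in Arabidopsis and 238 RPM in rice, and the 34-base one 45.7 and 168 RPM. These values are scaled to different totals in the species, so their sizes cannot be compared between them. In Arabidopsis the reads of the fragments that end in CCA started mainly at positions 50 to 53, with means of 48.2, 49.8, 53.6 and 45.7 RPM, and a separate start at position 57 averaged 25.5 RPM. In rice, starts at positions 51, 52 and 53 averaged 115, 238 and 168 RPM, while position 50 averaged 20.8 RPM. The substitution T50G lies at that start. All of these starts lie 3′ of the anticodon arm, in or next to the variable arm, so the fragments hold the T arm and the acceptor 3′ strand.

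**Figure D2:**
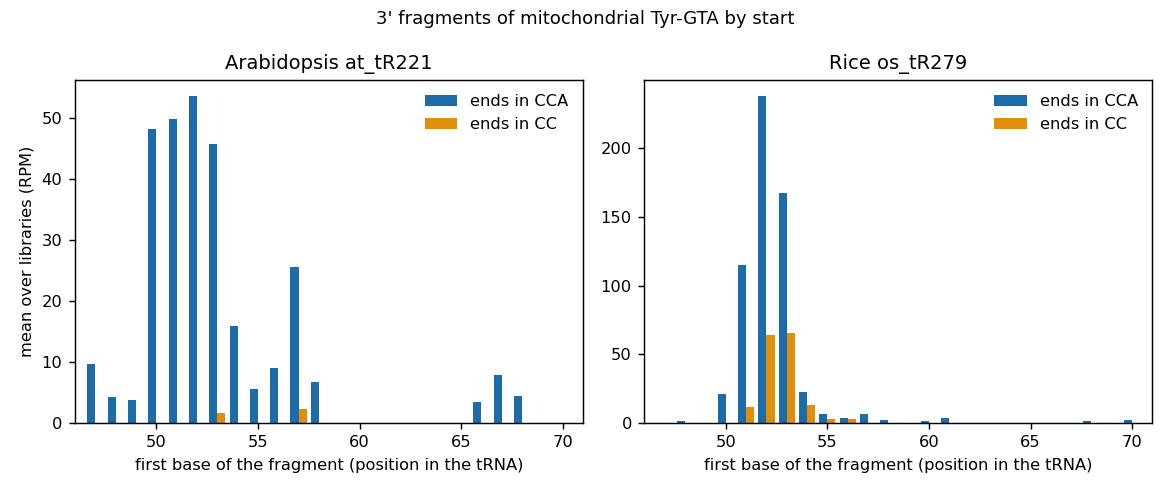
Mean RPM of mitochondrial Tyr 3′ fragments by the position of their first base in the tRNA, for fragments ending in CCA and in CC, in Arabidopsis and rice. Starts cluster at positions 50 to 53 in Arabidopsis and at 51 to 53 in rice, and fragments ending in CC reach 65.2 RPM in rice and at most 2.24 RPM in Arabidopsis. RPM is scaled to a different total in each species, so heights cannot be compared between the panels.

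The summed 3′ fragments of Tyr were 674 and 596 RPM in flower and 303 and 357 RPM in silique, against 216 and 103 RPM in stem, 191 and 262 RPM in stem leaf and 103 and 163 RPM in rosette leaf. Flower and silique were above all vegetative libraries, with flower highest. In rice the sums were 1099.6 and 1136 RPM in panicle, 981 and 959 RPM in cold root, 434 and 404 RPM in salt root and 1577 and 1476 RPM in control root. The shoot sums were 372 and 405 RPM under cold, 269 and 329 RPM under salt and 529 and 542 RPM in control seedlings. Control root was thus highest and salt shoot lowest.

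The last base of these fragments differed between rice organs. Of the Tyr 3′ reads, those ending in CC without the terminal A made up 6.37 and 6.31% in panicle, 26.8 and 27% in cold root, 28.6 and 25.5% in salt root and 34 and 32.3% in control root. They made up 11.2 and 11% in cold shoot, 13.7 and 17.2% in salt shoot and 15.6 and 11.3% in control shoot. Every root library was above every shoot and panicle library. The same order was seen in nuclear tRNAs, whose 3′ fragments ended in CC for 21 and 20.1% of reads in panicle, 69.6 and 69.4% in control root, and 31.0 and 29.4% in control shoot, so the difference was not particular to Tyr. The 3′ fragments of the other mitochondrial tRNAs ended in CC in 45.9 and 45.9% in control root and 4.91 and 8.93% in control shoot. In Arabidopsis the share of Tyr reads ending in CC was at most 9.52%, in 1 stem library, and 0 in the silique and rosette leaf libraries. What sets the share was not tested.

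The most abundant single member-only sequence of Arabidopsis was the 20-base 3′ end of the glycine tRNA printed above. Its mean over all libraries was 54.7 RPM, beside 53.6 RPM for the 35-base Tyr fragment, and its mean in silique was 221 RPM. This Gly fragment had 247 and 195 RPM in silique, 23.8 and 29.3 RPM in flower and 0 and 24.6 RPM in stem. In stem leaf it had 4.49 and 22.9 RPM, and it was listed at 0 in rosette leaf. The silique libraries stood far above all others. Glutamate fragments were 3′ tiRNAs in Arabidopsis, with means of 25.0 RPM for the 39-base sequence printed above and 21.1 RPM for one that begins 1 base earlier, at the last base of the anticodon. In rice the identical tRNA gave those fragments at 4.75 and 6.72 RPM, while a 36-base 5′ tiRNA averaged 24.1 RPM. RPM of rice and Arabidopsis are scaled to different totals, so these levels cannot be compared between the species. The lysine tRNA of Arabidopsis was the exception to the 3′ rule: its 25-base tRF-5 averaged 21.6 RPM, and its 5′ and 3′ fragments summed to 34 and 29.9 RPM. In rice member-only 5′ fragments led for 5 of 11 tRNAs. Asp-GTC had 46.7 RPM of the 5′ and 1.5 RPM of the 3′ side, Gln-TTG had 16.5 and 5.40 RPM, and Glu-TTC had 36.1 and 29.4 RPM. Those of os_tR188 Met (5.62 RPM) and os_tR274 Trp (3.10 RPM) were of the 5′ side alone. The fragments that os_tR188 and os_tR274 share with other tRNAs were mainly of the 3′ side. They had 0 RPM of the 5′ and 12.3 RPM of the 3′ side for os_tR188, and 17.8 and 67.3 RPM for os_tR274. The initiator os_tR186 was near even, with 26.0 RPM of the 5′ and 27.9 RPM of the 3′ side. The tRNAs os_tR187 (49.3 RPM), os_tR248 Ser-TGA (54.1 RPM), os_tR170 Lys (38.1 RPM) and os_tR223 Pro (3.48 RPM) gave member-only fragments of the 3′ side alone. For os_tR170, fragments of the 5′ side that also match the nuclear tRNA os_tR168 summed to 38.3 RPM.

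For plastid-like members the fragments seldom told the organelles apart. The 13 to 24 listed fragments of at_tR136 Met, at_tR183 Ser-GGA, at_tR99 His and at_tR205 Trp all matched the plastid tRNA as well, and summed to 231, 277, 427 and 378 RPM, which exceeds the tRF totals the authors give for these tRNAs (56.8, 36.0, 60.9 and 151 RPM). The authors' tRF totals therefore do not hold all fragments that match the sequence. How shared reads were divided is not given in the sources used here. For at_tR42 Asn, which is 98.6% identical to its plastid counterpart, member-only fragments made up 4.53% of the tRF total, against 82.8% for at_tR221 Tyr and 90.2% for os_tR279 Tyr. The listed fragments of at_tR42 that also match the plastid tRNA summed to 9.07 RPM, beside 57.7 RPM of member-only ones. Most of its tRF total of 1274 RPM was thus in neither set of listed exact fragments.

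Levels of tRNA signal and of fragments did not follow the same order. Per tRNA, without correction for length (all members are 73 to 91 bases long with CCA), the most tRNA signal in Arabidopsis, as a mean over all libraries, came from the initiator at_tR142 (mean 1852 RPM), at_tR158 Pro-TGG (1836 RPM) and at_tR62 Cys-GCA (1724 RPM), followed by at_tR205 Trp, at_tR221 Tyr and at_tR49 Asp. The order differed between tissues: in flower Pro (3970.2 and 4313 RPM) stood above the initiator (2674 and 2724 RPM), and in silique Cys had 5169 and 3955 RPM. The largest tRF total was that of at_tR42 Asn (1274 RPM, 49.6% of all members), then at_tR221 Tyr (358 RPM, 14.0%), at_tR205 Trp (151 RPM), at_tR132 Lys (107 RPM), at_tR158 Pro (98.9 RPM) and at_tR91 Gly (89.2 RPM). The initiator ranked 1 of 19 by signal and 14 by tRF total (31.6 RPM). In rice the Tyr tRNA os_tR279 was first by tRF total (869 RPM, 43.4% of members) and ranked 3 of 8 by signal (91.4 RPM), and the initiator os_tR186 ranked 2 by tRF total (247 RPM) and first by signal (312 RPM). The other leading rice tRF totals were os_tR108 Glu (177 RPM), os_tR53 Asp (134 RPM), os_tR274 Trp (101 RPM) and os_tR170 Lys (89.8 RPM). The lowest members were at_tR103 (4.29 RPM), and os_tR71 Cys (1.21 RPM) and os_tR224 Pro (0.969 RPM) in rice; os_tR224 was the 1 member of the 34 below the mean of 1 RPM required for a test.

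In flower, mitochondrial tRNAs had more tRNA signal than in the vegetative tissues (stem, stem leaf and rosette leaf). With limma and an adjusted p under 0.05, 10 of 19 members were called higher, against 39% of all tRNAs tested, and 0 of 19 were lower, against 9% (after rescaling, 2 higher and 2 lower). The members' median log2 fold was 2.12, against 1.42 for all tRNAs; rescaling brought the median of all tRNAs to -0.01 and the members' median to 0.70. Tyr at_tR221 had 2133 and 2213 RPM in flower, against 136 to 607 RPM in the 6 vegetative libraries, with rosette leaf lowest and no overlap (log2 fold 3.06 ± 0.30 (SE), adjusted p = 4.54e-05; 1.64 after rescaling). Pro at_tR158 had 3970.2 and 4313 RPM in flower, against 193 to 1278 RPM (log2 fold 2.71 ± 0.16 (SE), adjusted p = 1.72e-06; 1.28 after rescaling). Glu at_tR81 had 504 and 426 RPM, against 14.4 to 169 RPM (log2 fold 3.09 ± 0.51 (SE), adjusted p = 0.00110; 1.67 after rescaling, adjusted p = 0.0542, no longer called). In all 3 the flower libraries lay above every vegetative one. The other members called higher were Cys, the initiator, Asp, Asn, His, Gly and Lys, with log2 folds of 0.64 to 2.55. The initiator at_tR142 overlapped the vegetative libraries, with 2674 and 2724 RPM in flower, against 3533 and 3188 RPM in stem and 162 and 196 RPM in rosette leaf; rescaling reversed Cys at_tR62 (-0.78). After rescaling the members called were Tyr and Pro, higher, and Cys and Trp at_tR205, lower. The call of at_tR132 Lys was lost without either library of flower or rosette leaf, stem leaf replicate 1 or stem replicate 2 (adjusted p = 0.0510 to 0.218), and that of Cys without either flower library (0.0577 and 0.218). Before rescaling Trp was not called, with 404 and 603 RPM in flower, against 219 to 852 RPM in the vegetative libraries (log2 fold 0.18; -1.25 after rescaling).

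By tRF total 10 of 19 members were higher in flower, against 51.3% of all tRNAs, and 0 lower, against 23% (after rescaling, 4 and 0). The share of members called higher was thus close to that of all tRNAs, and the medians were 1.04 for members and 0.49 for all. Of the plastid-like members 1 of 6 was called higher (at_tR42 Asn), against 9 of the other 13; this difference between kinds was not tested. Gln at_tR71 had 83.9 and 85.9 RPM in flower, against 0 to 27.4 RPM in the vegetative libraries (log2 fold 3.01 ± 0.76 (SE), adjusted p = 0.00298). The initiator at_tR142 had 78.7 and 78.1 RPM, against 8.97 to 36.5 RPM (log2 fold 2.00 ± 0.55 (SE), adjusted p = 0.00499). Gly at_tR91 had 100.4 and 98.9 RPM, against 10.3 to 37.2 RPM (log2 fold 2.00 ± 0.35 (SE), adjusted p = 1.66e-04). Flower did not overlap the vegetative tissues in any of the 3. Tyr at_tR221 reached 822 and 701 RPM in flower, against 142 to 305 RPM (log2 fold 1.80 ± 0.22 (SE), adjusted p = 5.52e-06).

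Among the 67 member-only fragments 4 were called in flower, all higher, against 8.32% of all fragments called in either direction (after rescaling, 1). The 36-base Tyr fragment, which begins 1 base before the 35-base one, had 144 and 114 RPM in flower, against 8.58 to 48.7 RPM in the vegetative libraries (log2 fold 2.52 ± 0.49 (SE), adjusted p = 0.00917; 1.99 after rescaling, adjusted p = 0.0968). The 35-base Tyr fragment had 107 and 97.0 RPM, against 14.7 to 53.9 RPM (log2 fold 1.53 ± 0.38 (SE), adjusted p = 0.0337; 0.99 after rescaling, adjusted p = 0.333). Both flower libraries were above every vegetative library. The other 2 were a 40-base fragment of Gln and a 38-base fragment of the initiator, at 25.3 and 16.2 RPM on average in flower. Without flower replicate 1 the adjusted p was 0.195 for the 36-base and 0.315 for the 35-base fragment, without replicate 2 it was 0.123 and 0.236, and the 35-base one also lost its call without either stem leaf library (0.0640 and 0.0682). No fragment kept its call when either flower library was left out, and 7 or 8 were called without either silique library, rosette leaf replicate 2 or stem replicate 2.

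**Figure D3:**
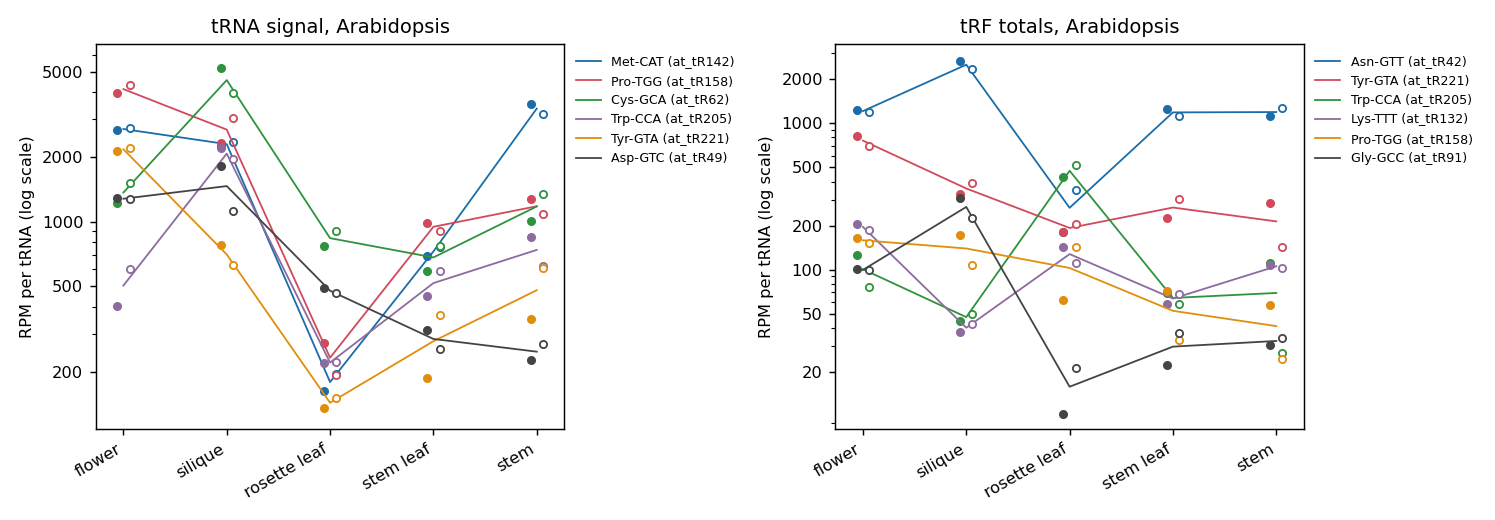
RPM per tRNA (log axis) of the 6 Arabidopsis mitochondrial tRNAs of highest mean tRNA signal (left) and the 6 of highest tRF total (right), by tissue; filled points are replicate 1, open points replicate 2 and lines join group means. In signal, Tyr at_tR221 is at 2133 and 2213 RPM in flower and at most 607 RPM in every vegetative library; in tRF totals, Asn at_tR42 and Gly at_tR91 are highest in silique.

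In silique 11 of 19 members had more tRNA signal than the vegetative tissues, against 47.5% of all tRNAs, and 1 had less, against 10.5% (after rescaling, 2 higher and 4 lower). The medians were 1.75 for members and 1.61 for all tRNAs, and -0.09 and -0.23 after rescaling. Ser-GGA at_tR183 had 603 and 516 RPM in silique, against 0 to 67.5 RPM in the vegetative libraries (log2 fold 4.90 ± 1.39 (SE), adjusted p = 0.0143; 3.06 after rescaling, adjusted p = 0.0877). Gly at_tR91 had 603 and 573 RPM, against 15.1 to 150.3 RPM (log2 fold 3.37 ± 0.48 (SE), adjusted p = 2.83e-04; 1.53 after rescaling, still called), and Asn at_tR42 had 1422 and 1605 RPM, against 47.6 to 601 RPM (log2 fold 2.68 ± 0.25 (SE), adjusted p = 1.58e-05; 0.84 after rescaling, adjusted p = 0.0776). Rescaling thus ended the calls of Ser-GGA and Asn. All silique values of these 3 were above the vegetative ones; 2 of the 3 are plastid-like. Ser-GCT at_tR181 was the 1 member called lower, with 0 and 115 RPM in silique, against 146 to 422 RPM (log2 fold -4.26 ± 1.43 (SE), adjusted p = 0.0311). It had no read in 1 of the 2 silique libraries, and without silique replicate 1 its log2 fold was -0.84 and the call was lost (adjusted p = 0.0661), as it was without either library of flower, rosette leaf or stem leaf, or stem replicate 2 (0.0559 to 0.0927). The call of at_tR183 was also lost without either library of silique or flower (adjusted p = 0.0513 to 0.0661).

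By tRF total, 4 members were higher in silique, against 50% of all tRNAs, and 7 lower, against 28.8% (after rescaling, 2 higher and 10 lower). The members' median log2 fold was -0.37, against 0.49 for all tRNAs, so that the medians had opposite signs; with rescaling they were -1.32 and -0.46. Gly at_tR91 had 310.2 and 226 RPM in silique, against 10.3 to 37.2 RPM in the vegetative libraries (log2 fold 3.40 ± 0.35 (SE), adjusted p = 6.11e-07; 2.45 after rescaling), and its 20-base 3′ end made up 247 and 195 RPM of these silique totals. Asn at_tR42 had 2676 and 2349 RPM, against 182 to 1265 RPM (log2 fold 1.82 ± 0.17 (SE), adjusted p = 2.37e-07; 0.87 after rescaling). Its plastid counterpart had 3394 and 3368 RPM in silique, against 4274 and 4033 RPM in stem leaf and 2303 and 2367 RPM in rosette leaf, and the pair was not tested against each other. Member-only fragments made up only 4.53% of the tRF total of at_tR42, and none of them was called in silique. The most abundant of them, of 40 bases, had 7.48 and 4.76 RPM in silique, against 0 to 34.4 RPM in the vegetative libraries. Tyr at_tR221 had 329 and 388 RPM, against 142 to 305 RPM (log2 fold 0.72 ± 0.22 (SE), adjusted p = 0.00939); rescaling turned this fold to -0.23, and without silique replicate 2 the call was lost (adjusted p = 0.0724). Pro at_tR158 was the other member called higher (log2 fold 1.27; 0.32 after rescaling, no longer called), and lost its call without silique replicate 1 (adjusted p = 0.136).

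Of the members with fewer fragments in silique, the elongator Met at_tR136 had no tRF read in either silique library, against 2.86 to 258 RPM in the vegetative libraries. Set against a floor of 3 reads in the shallower silique library (11.2 RPM), it was at least 7.67-fold below the vegetative mean (adjusted p = 2.76e-06), which rosette leaf dominated with 216 and 258 RPM; stem and stem leaf stood at 2.86 to 14.7 RPM, near that floor. Its plastid counterpart was low there too, with 52.3 and 28.6 RPM in silique, against 870.5 and 919 RPM in stem and 1909 and 1899 RPM in rosette leaf. Cys at_tR62 had 29.9 and 14.3 RPM in silique, against 39.3 to 106 RPM (log2 fold -1.67 ± 0.35 (SE), adjusted p = 6.18e-04), although its tRNA signal in silique was the highest of all tissues (5169 and 3955 RPM in silique, against 589 to 1349 RPM). Lys at_tR132 had 37.4 and 42.9 RPM, against 58.3 to 144 RPM (log2 fold -1.22 ± 0.23 (SE), adjusted p = 2.82e-04). Neither Cys nor Lys overlapped between silique and the vegetative tissues. The other members called lower were Trp, Asp, Glu and Ser-GGA, with log2 folds of -1.38 to -1.23; Asp lost its call without silique replicate 1 (adjusted p = 0.189) or stem leaf replicate 1 (0.0567).

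Of the 67 member-only fragments 5 were called in silique, 3 higher and 2 lower, against 22.4% of all fragments in either direction (after rescaling, 2 and 2). The 20-base Gly 3′ end was higher (log2 fold 5.83 ± 1.07 (SE), adjusted p = 0.00315), as was its 19-base form, which was listed at 0 in all vegetative libraries. The 37-base Tyr fragment had 93.4 and 85.7 RPM in silique, against 0 to 31.5 RPM (log2 fold 2.98 ± 0.93 (SE), adjusted p = 0.0439; 2.61 after rescaling, adjusted p = 0.0805). Its call was lost without either library of silique, flower or stem leaf, or stem replicate 2 (adjusted p = 0.0808 to 0.213). A 31-base Cys 3′ fragment had 0 reads in both silique libraries, against 10.7 to 65.1 RPM in the vegetative libraries (adjusted p = 2.18e-04). The remaining one was the 40-base Glu tiRNA, at 0 in silique as well. Without either flower library or stem leaf replicate 2, the count of calls was 3.

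In rice control seedlings, the largest differences in tRF total between root and shoot were those of the Tyr, Gln and initiator tRNAs. Of the 14 members tested 6 had a higher tRF total in root, against 42.6% of all tRNAs, and 3 lower, against 39.7% (after rescaling, 6 and 2); the medians were 0.23 for members and 0.04 for all. Tyr os_tR279 had 1758 and 1637 RPM in control root, against 629 and 634 RPM in control shoot (log2 fold 1.42 ± 0.07 (SE), adjusted p = 1.33e-12). Gln os_tR81 had 97.8 and 88.4 RPM in root, against 34.9 and 30.6 RPM in shoot (log2 fold 1.48 ± 0.20 (SE), adjusted p = 1.84e-06). The initiator os_tR186 had 348 and 333 RPM in root, against 163 and 177 RPM in shoot (log2 fold 1.0 ± 0.08 (SE), adjusted p = 6.41e-10). No root library overlapped a shoot library in these 3. Ser-TGA, Glu and Ser-GCT were also higher, with log2 folds of 0.92, 0.92 and 0.59. Lower in root were the isoleucine-type os_tR187 with 60.4 and 54.5 RPM in root, against 87.0 and 96.4 RPM in shoot (log2 fold -0.67 ± 0.18 (SE), adjusted p = 0.00209), Ser-GGA os_tR244 (log2 fold -0.43) and Lys os_tR170 (log2 fold -0.39). The call of Ser-GGA was lost after rescaling (-0.42, adjusted p = 0.0657) and without either library of control root, control shoot, cold root or cold shoot (adjusted p = 0.0537 to 0.225). The call of Lys was lost without control root replicate 2, either control shoot library or either panicle library (0.0572 to 0.197).

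In tRNA signal, 4 of 8 members were higher in root, against 59% of all tRNAs, and 0 lower, against 15.2% (after rescaling, 2 higher and 3 lower). The median log2 fold of all tRNAs was 2.12, above the members' 1.86, and rescaling brought these to 0.13 and -0.13. Lys os_tR170 had 213 and 131 RPM in root, against 12.3 and 7.74 RPM in shoot (log2 fold 3.96 ± 0.66 (SE), adjusted p = 4.76e-05; 1.97 after rescaling), the opposite direction to its tRF total. Gln os_tR81 had 309 and 447 RPM in root, against 56.6 and 32.7 RPM in shoot (log2 fold 3.08 ± 0.42 (SE), adjusted p = 6.05e-06; 1.09 after rescaling), and Asp os_tR53 142 and 120.4 RPM, against 9.84 and 25.8 RPM (log2 fold 2.95 ± 0.52 (SE), adjusted p = 7.97e-05; 0.96 after rescaling, adjusted p = 0.138, no longer called). Root and shoot did not overlap in any of the 3. The other was the initiator os_tR186, whose log2 fold of 1.24 became -0.75 after rescaling, when the initiator, Tyr and Ser-TGA were called lower.

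Of the 91 member-only rice fragments, 24 were higher and 14 lower in root than in shoot, and 49.5% of all fragments were called in either direction (after rescaling, 19 and 16). Tyr gave 10 of the 24, and 23 of the 91 fragments tested were from Tyr. The largest fold was that of the 33-base Tyr fragment ending in CC, with 246 and 233 RPM in root, against 28.6 and 19.7 RPM in shoot (log2 fold 3.28 ± 0.27 (SE), adjusted p = 7.87e-09). The 34-base fragment that begins at the same base and ends in CCA had 354 and 341 RPM in root, against 114 and 112 RPM in shoot (log2 fold 1.61 ± 0.13 (SE), adjusted p = 8.46e-09). Root was above shoot in both, by more for the form ending in CC. Lower in root were short 3′ ends of Lys, such as the 20-base one with 2.74 and 3.42 RPM in root, against 28.1 and 25.2 RPM in shoot (log2 fold -2.76 ± 0.44 (SE), adjusted p = 5.05e-05), and a 31-base 3′ fragment of os_tR187 with 4.80 and 6.41 RPM, against 26.7 and 31.5 RPM (log2 fold -2.19 ± 0.36 (SE), adjusted p = 5.91e-05). The count fell to 23 called without control root replicate 1.

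Panicle was set against the mean of control root and control shoot. By tRF total 9 of 14 members were higher in panicle, against 60.7% of all tRNAs, and 2 lower, against 15.8% (after rescaling, 7 and 2); the medians were 0.51 for members and 0.44 for all. The isoleucine-type os_tR187 had 222 and 221 RPM in panicle, against 54.5 to 96.4 RPM in the 4 seedling libraries (log2 fold 1.60 ± 0.15 (SE), adjusted p = 2.42e-08). Ser-TGA os_tR248 had 210.0 and 201 RPM, against 56.6 to 119 RPM (log2 fold 1.37 ± 0.14 (SE), adjusted p = 7.62e-08), and the elongator Met os_tR188 40.5 and 45.4 RPM, against 13.2 to 20.2 RPM (log2 fold 1.31 ± 0.22 (SE), adjusted p = 3.49e-05). These panicle values were above all seedling ones. Both members called lower are plastid-like: Trp os_tR274 had 56.6 and 50.1 RPM in panicle, against 126 to 135 RPM (log2 fold -1.28 ± 0.09 (SE), adjusted p = 4.31e-10), and Ser-GGA os_tR244 had 41.5 and 54.9 RPM, against 64.9 to 97.0 RPM (log2 fold -0.70 ± 0.17 (SE), adjusted p = 9.77e-04). The nearest plastid tRNA of Ser-GGA had 973 and 931 RPM in panicle, against 259 and 267 RPM in control root and 2248 and 2217 RPM in control shoot. The nearest plastid tRNA of Trp had 107 and 124 RPM in panicle, against 40.8 and 31.0 RPM in control root and 404 and 442 RPM in control shoot. Tyr os_tR279 lay between the organs, with 1336 and 1345 RPM in panicle, and was called higher at a log2 fold of 0.37 against their mean (0.13 after rescaling, adjusted p = 0.161, no longer called).

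In tRNA signal 3 of 8 members were higher in panicle, against 60.7% of all tRNAs, and 0 lower, against 0.41% (after rescaling, 0 higher and 2 lower). Ser-TGA os_tR248 had 167 and 148 RPM in panicle, against 23.4 to 71 RPM (log2 fold 1.99 ± 0.43 (SE), adjusted p = 8.97e-04), and Tyr os_tR279 131 and 139 RPM, against 44.3 to 89.4 RPM (log2 fold 1.08 ± 0.37 (SE), adjusted p = 0.0187). Neither overlapped; rescaling gave 0.76 and -0.15, and the Tyr call was lost without either panicle library (adjusted p = 0.0879 and 0.119). The other was os_tR186 (log2 fold 0.75; -0.48 after rescaling). Without salt shoot replicate 2, which changes only the shared spread, 5 members were called.

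In panicle 29 of the 91 member-only fragments were higher and 7 lower, with 45.3% of all fragments called in either direction (after rescaling, 17 and 14). The 33-base 3′ fragment of os_tR187 printed above had 92.0 and 98.9 RPM in panicle, against 1.81 to 5.77 RPM in the seedling libraries (log2 fold 4.48 ± 0.39 (SE), adjusted p = 4.28e-08). A 38-base 3′ fragment of Ser-TGA had 64.0 and 65.4 RPM, against 3.63 to 12.3 RPM (log2 fold 3.19 ± 0.42 (SE), adjusted p = 7.52e-06). The 36-base 5′ fragment of Tyr printed above, which ends within the anticodon, had 68.2 and 69.4 RPM, against 6.20 to 10.3 RPM (log2 fold 2.89 ± 0.26 (SE), adjusted p = 7.87e-08). Panicle was above every seedling library in all 3. The 34-base Tyr fragment ending in CC was lower, with 24.4 and 17.8 RPM in panicle, against 27.2 to 197 RPM (log2 fold -1.84 ± 0.20 (SE), adjusted p = 6.58e-07). Fragments of the CAT tRNAs gave 11 of the 29 higher calls. Of the 91 fragments tested, os_tR186 had 13, os_tR187 9 and os_tR188 2, some of them overlapping pieces. Without panicle replicate 1 the count of calls was 22.

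**Figure D4:**
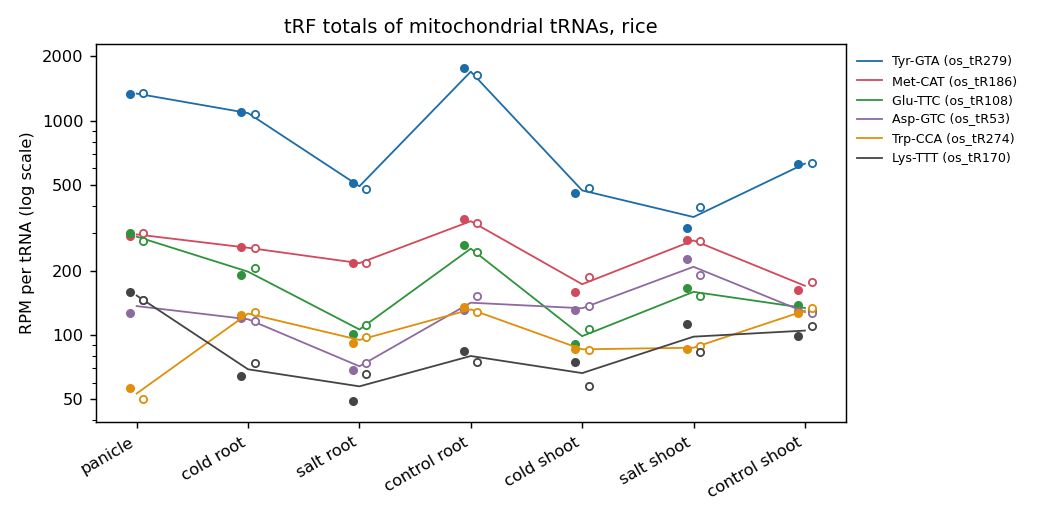
RPM per tRNA (log axis) of the 6 rice mitochondrial tRNAs of highest mean tRF total, by group; filled points are replicate 1, open points replicate 2 and lines join group means. Tyr os_tR279 is the highest in every group, from 315 RPM in a salt shoot library to 1758 RPM in a control root library, and Trp os_tR274 is lowest in panicle.

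Fragments of most mitochondrial tRNAs fell in salt root. By tRF total 10 of 14 members were lower in salt root than in control root, against 35.7% of all tRNAs, and 0 higher, against 21% (after rescaling, 7 lower and 1 higher). The members' median log2 fold was -0.81, against -0.09 for all tRNAs; rescaling moved these to -0.14 and 0.59. Tyr os_tR279 had 511 and 479 RPM in salt root, against 1758 and 1637 RPM in control root (log2 fold -1.78 ± 0.07 (SE), adjusted p = 3.65e-13; -1.10 after rescaling). Ser-GGA os_tR244 had 16.5 and 24.3 RPM under salt, against 69.3 and 64.9 RPM in control root (log2 fold -1.70 ± 0.19 (SE), adjusted p = 4.38e-07), and Ser-TGA os_tR248 38.6 and 39.2 RPM, against 119 and 100 RPM (log2 fold -1.46 ± 0.17 (SE), adjusted p = 4.38e-07). Salt and control libraries did not overlap in any of the 3. Ser-GCT, Gln, Glu and Asp also fell, by 1.37, 1.36, 1.25 and 0.97 on the log2 scale. The initiator, Lys and Trp were called lower by 0.65, 0.48 and 0.47, and rescaling turned these to 0.03, 0.20 and 0.21. The call of Lys was lost without salt root replicate 1 (adjusted p = 0.287) or control root replicate 1 (0.135). For Ser-GGA the nearest plastid tRNA had 107 and 120.2 RPM in salt root, against 259 and 267 RPM in control root.

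In tRNA signal 2 of 8 members were higher in salt root, against 14.8% of all tRNAs, and 0 lower, against 12.3% (after rescaling, 2 and 0). The members' median log2 fold was -0.22, against -0.07 for all tRNAs. Lys os_tR170 had 41.9 and 70.6 RPM in salt root, against 213 and 131 RPM in control root (log2 fold -1.60 ± 0.66 (SE), adjusted p = 0.0870); it was called lower with a pseudocount of 5 RPM (-1.53, adjusted p = 0.0197) and with voom (-1.46, adjusted p = 0.0251). Tyr os_tR279 had 262 and 155 RPM of tRNA signal in salt root, against 71 and 89.4 RPM in control root (log2 fold 1.33 ± 0.43 (SE), adjusted p = 0.0289). This call was lost without salt root replicate 1 (log2 fold 0.95, adjusted p = 0.212), either control root library (adjusted p = 0.136 and 0.0527) or either panicle library (0.0631 in both cases). The initiator os_tR186 had 644 and 653 RPM under salt, against 304 and 440.2 RPM (log2 fold 0.82 ± 0.19 (SE), adjusted p = 0.00394), and lost its call without control root replicate 1 (0.56, adjusted p = 0.0668), when 0 of 8 members were called. For Tyr the signal was thus higher and the tRF total lower under salt, and for the initiator too before rescaling.

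In salt shoot the members went both ways. By tRF total 3 of 14 were higher than in control shoot, against 40.1% of all tRNAs, and 6 lower, against 21.7% (after rescaling, 1 higher and 11 lower), with medians of -0.54 for members and 0.18 for all. The initiator os_tR186 had 277 and 276 RPM in salt shoot, against 163 and 177 RPM in control shoot (log2 fold 0.70 ± 0.08 (SE), adjusted p = 1.93e-07; 0.26 after rescaling), and Asp os_tR53 226 and 191 RPM, against 129 and 127 RPM (log2 fold 0.69 ± 0.11 (SE), adjusted p = 2.26e-05; 0.25 after rescaling, no longer called). Glu os_tR108 was called higher by 0.25 and turned to -0.19 after rescaling; its call was lost without salt shoot replicate 1 or either control shoot library (adjusted p = 0.0530 to 0.165). Tyr os_tR279 had 315 and 396 RPM, against 629 and 634 RPM (log2 fold -0.84 ± 0.07 (SE), adjusted p = 8.81e-09; -1.28 after rescaling), and Ser-TGA os_tR248 38.0 and 25.6 RPM, against 57.6 and 56.7 RPM (log2 fold -0.85 ± 0.17 (SE), adjusted p = 1.84e-04). No salt library overlapped a control library in these members. Met os_tR188, Trp, os_tR187 and Ser-GCT were called lower by 0.65, 0.57, 0.55 and 0.53; os_tR188 lost its call without either salt shoot library or control shoot replicate 1 (adjusted p = 0.0554 to 0.259). In tRNA signal 1 of 8 members was lower, against 13.1% of all tRNAs, and 0 higher, against 13.5% (after rescaling, 1 and 0). This was the initiator, with 101 and 97.5 RPM in salt shoot, against 141 and 169 RPM (log2 fold -0.63 ± 0.19 (SE), adjusted p = 0.0234), whose call was lost without salt shoot replicate 2 (adjusted p = 0.0619) or control shoot replicate 2 (0.157); without salt shoot replicate 1 there were 2 calls.

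Whether a stress response differed between the organs was tested as the log2 fold in root minus that in shoot. For salt and tRF totals it was called for 8 of 14 members, against 63.2% of all tRNAs. This percent and the others for differences between organs count calls in both directions. All 8 members called lay below 0, and the share of all tRNAs called below 0 is not given. It was largest for Asp os_tR53 (-1.67 ± 0.16 (SE), adjusted p = 2.52e-08), Ser-GGA os_tR244 (-1.56 ± 0.27 (SE), adjusted p = 6.14e-05), Glu os_tR108 (-1.5 ± 0.14 (SE), adjusted p = 2.08e-08) and the initiator os_tR186 (-1.35 ± 0.11 (SE), adjusted p = 3.03e-09), and it was -0.94 ± 0.10 (SE), adjusted p = 2.59e-07 for Tyr. After rescaling only Asp (-0.55) and Glu (-0.38) were still called; the initiator (-0.23) and Ser-GGA (-0.44) were not, and Tyr (0.18), Gln (0.13), Ser-TGA (0.51) and Ser-GCT (0.28) had the opposite sign without a call. Without rescaling, Ser-TGA lost its call without either library of salt root or control shoot, control root replicate 1 or salt shoot replicate 1 (adjusted p = 0.0555 to 0.179), and Ser-GCT without salt root replicate 2, control root replicate 1, salt shoot replicate 1 or control shoot replicate 2 (0.0650 to 0.107). In tRNA signal the initiator was called in the other direction (1.46 ± 0.27 (SE), adjusted p = 9.93e-04; 1.78 after rescaling), 1 of 8 members against 24.2% of all tRNAs.

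**Figure D5:**
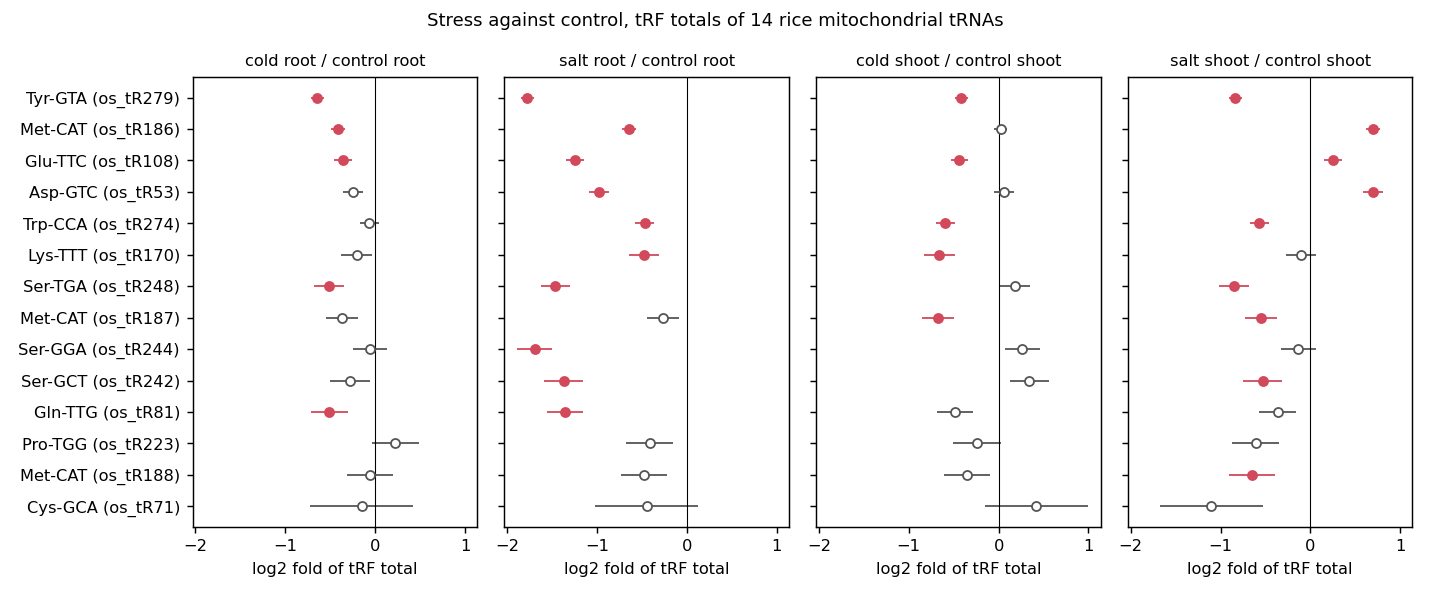
Log2 fold of the tRF total of each of the 14 tested rice mitochondrial tRNAs under cold or salt against control, in root and in shoot; filled points were called, open points were not, and bars are 1 SE from the fit. In salt root 10 members were called lower, with Tyr at -1.78, while in salt shoot the initiator stands at 0.70 and Tyr at -0.84.

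Single fragments showed the fall of Tyr under salt. In salt root 16 of 91 member-only fragments were lower and 0 higher, with 10.6% of all fragments called in either direction (after rescaling, 17 and 0), and 10 of the 16 were Tyr fragments. Tyr gave 23 of the 91, many of them overlapping pieces, and they make up most of its tRF total. Their fall is therefore not separate from the fall of that total. The 34-base Tyr fragment ending in CCA had 58.5 and 54.7 RPM in salt root, against 354 and 341 RPM in control root (log2 fold -2.60 ± 0.13 (SE), adjusted p = 4.99e-11). The 33-base form ending in CC had 35.9 and 34.7 RPM, against 246 and 233 RPM (log2 fold -2.73 ± 0.27 (SE), adjusted p = 5.88e-07). Neither overlapped its control. With salt root replicate 1, salt root replicate 2, control root replicate 1 or control root replicate 2 left out, 9, 10, 7 and 10 fragments were called. In salt shoot 15 were lower, 11 of them from Tyr, and 3 higher, with 31.2% of all fragments called (after rescaling, 28 and 3; 11 calls without control shoot replicate 1). The 33-base 3′ fragment of os_tR187 was among those higher, with 13.4 and 6.92 RPM in salt shoot, against 1.81 and 2.86 RPM (log2 fold 1.70 ± 0.45 (SE), adjusted p = 0.00852), while the 31-base form that begins 2 bases later was lower, with 16.8 and 9.68 RPM, against 26.7 and 31.5 RPM (log2 fold -1.12 ± 0.36 (SE), adjusted p = 0.0233). The 33-base form lost its call without salt shoot replicate 1 (adjusted p = 0.0664) or control shoot replicate 1, and the 31-base form without salt shoot replicate 2 (0.145) or either control shoot library.

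By tRF total, fewer members were called under cold than under salt in each organ. Of 14 members 5 were lower in cold root, against 29.4% of all tRNAs, and 0 higher, against 26.1% (after rescaling, 1 and 0). Tyr os_tR279 had 1102 and 1073 RPM in cold root, against 1758 and 1637 RPM in control root (log2 fold -0.64 ± 0.07 (SE), adjusted p = 5.48e-07; -0.46 after rescaling), without overlap. Ser-TGA, Gln, the initiator and Glu were called lower by 0.51, 0.51, 0.41 and 0.36. The call of Gln was lost without either library of cold root, control root or panicle (adjusted p = 0.0533 to 0.174), and those of Ser-TGA and Glu without cold root replicate 1 (0.148 and 0.0519) or control root replicate 1 (0.125 and 0.0507); only 2 members were called without cold root replicate 1 and 3 without control root replicate 1. In cold shoot 5 members were lower, against 19.1% of all tRNAs, and 0 higher, against 31.2% (after rescaling, 6 and 0). The isoleucine-type os_tR187 had 49.4 and 65.3 RPM in cold shoot, against 87.0 and 96.4 RPM (log2 fold -0.68 ± 0.18 (SE), adjusted p = 0.00390). Lys os_tR170 had 75.1 and 57.8 RPM, against 99.3 and 110.4 RPM (log2 fold -0.66 ± 0.17 (SE), adjusted p = 0.00350), and Trp os_tR274 86.2 and 85.3 RPM, against 126 and 133 RPM (log2 fold -0.59 ± 0.11 (SE), adjusted p = 1.43e-04). No cold library overlapped a control library in these 3. Lys lost its call without cold shoot replicate 2 (adjusted p = 0.0638) and os_tR187 without cold shoot replicate 1 (0.0793). Glu and Tyr were called lower by 0.44 and 0.42. The medians over members were -0.27 in root and -0.30 in shoot, against -0.0042 and 0.10 over all tRNAs. The difference between the organs under cold was called for Ser-TGA (-0.69 ± 0.23 (SE), adjusted p = 0.0160), the initiator (-0.43 ± 0.11 (SE), adjusted p = 0.00235) and Trp (0.53 ± 0.15 (SE), adjusted p = 0.00579), 3 of 14 members against 60.3% of all tRNAs; after rescaling these were -0.25, 0.01 and 0.97, with the last still called. Ser-TGA lost this call without cold root replicate 1 (adjusted p = 0.0880) or control root replicate 1 (0.0681). The cold and salt comparisons of an organ share their control libraries.

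The tRNA signal under cold had 1 member called in each organ. In cold root Lys os_tR170 was lower, 1 of 8 against 24.2% of all tRNAs, and 0 were higher, against 11.1% (after rescaling, 0 and 0). It had 48.9 and 36.6 RPM in cold root, against 213 and 131 RPM in control root (log2 fold -1.95 ± 0.66 (SE), adjusted p = 0.0302), and lost its call without either cold root library (adjusted p = 0.0754 and 0.149) or control root replicate 1 (0.149); without either salt shoot library 2 members were called. In cold shoot the initiator os_tR186 was higher, 1 of 8 against 36.5% of all tRNAs, and 0 were lower, against 2.46% (after rescaling, 0 higher and 2 lower). It had 224 and 226 RPM in cold shoot, against 141 and 169 RPM (log2 fold 0.54 ± 0.19 (SE), adjusted p = 0.0378; -0.38 after rescaling), and lost its call without either cold shoot library (adjusted p = 0.126 and 0.138) or control shoot replicate 1 (0.204). For the initiator the signal in root minus that in shoot was called too (-0.90 ± 0.27 (SE), adjusted p = 0.0144), 1 of 8 members against 43.4% of all tRNAs, but not without control root replicate 2 (adjusted p = 0.0709) or control shoot replicate 1 (0.0503), and rescaling turned it to 0.40.

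Of the 91 fragments 4 were lower in cold root, all from Tyr, and 0 higher, with 9.38% of all fragments called (after rescaling, 4 and 0). Tyr gave 23 of the 91 fragments tested. The 34-base Tyr fragment ending in CCA had 130.1 and 141 RPM in cold root, against 354 and 341 RPM (log2 fold -1.35 ± 0.13 (SE), adjusted p = 9.58e-07), without overlap. The 36-base Tyr fragment stood at 153 and 140.3 RPM in cold root and 125 and 123 RPM in control root (log2 fold 0.24, adjusted p = 0.348), and was not called lower. The count was 2 without either cold root library or control root replicate 1, and 7 without salt shoot replicate 1. In cold shoot 9 were lower, 7 of them from Tyr, and 1 higher, with 15.1% of all fragments called (after rescaling, 16 and 0). A 33-base Tyr fragment that begins at position 54 had 2.91 and 6.05 RPM in cold shoot, against 21.3 and 27.5 RPM (log2 fold -2.26 ± 0.31 (SE), adjusted p = 6.42e-05). With cold shoot replicate 1, cold shoot replicate 2, control shoot replicate 1 or control shoot replicate 2 left out, 2, 4, 4 and 5 fragments were called, and 18 without either salt shoot library.

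The rice calls are also given by whether the authors list a nuclear locus. In control root against control shoot, 4 of 9 members with nuclear loci had higher tRF totals and 2 lower, against 2 higher and 1 lower of the 5 tested without. Of all tRNAs 42.6% were called higher there and 39.7% lower. In salt root 6 of 9 with nuclear loci were lower, against 4 of 5 without and 35.7% of all tRNAs. In panicle 6 of 9 were higher and 0 lower, against 3 higher and 2 lower of 5 without. Of all tRNAs 60.7% were called higher there and 15.8% lower, so the higher calls of both kinds were near the share of all tRNAs. The 2 kinds were not tested against each other, and reads of a nuclear copy and of the mitochondrial gene cannot be told apart. Tyr os_tR279, which carries the main results in rice, has 2 listed mitochondrial positions and 1 on chromosome 1.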

How the data were processed

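Reads of 24 small RNA libraries were trimmed with cutadapt by the authors, who used the TAIR10 build, per the submitters' processing notes. Not given in the sources used here are the aligner, the rice build, how reads shared between tRNAs were treated and the total used for scaling. The authors deposited log2 values, headed as log2 of 1 plus scaled reads, per the file headers. An offset of 0.5 in the tRNA tables and of 1 in the fragment tables gave whole reads (all values within 0.05), and RPM was computed with these offsets.

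Comparisons used limma 3.58.1 in R 4.3.3 on log2(RPM + 1), which understates changes at low levels, with all groups of a species in 1 model and a mean of at least 1 RPM. A difference was called at a Benjamini-Hochberg adjusted p under 0.05 over all tRNAs or fragments of the species. With 2 libraries a group, no exact test of a single value could reach that threshold. The text names the members of highest mean level and, per comparison, up to 3 called members with the largest folds in each direction, at 10 RPM or more and without overlap. Others it names complete a count or were chosen after their values were seen. The members and lists were chosen with earlier results of these data known.

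Sequences come from the authors' tables and were matched to TAIR10.1 of RefSeq (Python 3.11.15, Biopython 1.88). Alternatives were a pseudocount of 5 RPM, a mean of at least 10 RPM or no filter, rescaling to equal nuclear medians, voom weights on the recovered reads, the replicate number as a block and each library left out. The code was tested on simulated data. With each recovered unit taken as 1 read, the chi-square of replicates per degree of freedom was 1.82 or more in every group. Many low recovered counts were even, such as all those of os_tR187 in tRNA signal, so units may not be independent reads. The chi-square therefore cannot show spread beyond counting noise.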

Additional observations from a re-analysis of the deposited data

Results flagged for a closer look

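For 9 rice tRNAs the stress response differed between the organs, and the difference itself, the log2 fold in root minus that in shoot, was tested with limma. Under salt the tRF totals gave -1.67 for Asp os_tR53, -1.56 for Ser-GGA os_tR244, -1.5 for Glu os_tR108, -1.35 for the initiator os_tR186, -0.99 for Gln os_tR81, -0.94 for Tyr os_tR279, -0.84 for Ser-GCT os_tR242 and -0.61 for Ser-TGA os_tR248. Under cold they gave -0.69 for os_tR248, -0.43 for os_tR186 and 0.53 for Trp os_tR274. In tRNA signal os_tR186 stood at 1.46 under salt and -0.90 under cold.

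Such differences were common among all rice tRNAs, with 63.2% called in either direction under salt and 60.3% under cold by tRF total. Of the 13 differences 4 kept their call after libraries were rescaled to equal nuclear medians (Asp and Glu under salt, Trp under cold, and the initiator's tRNA signal under salt), 3 lost it and 6 changed sign. With each library left out in turn, 9 of the 13 kept their call.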

How the results depend on the processing

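Of 161 named comparisons 118 were called, of which 84 kept the call with each library left out in turn and 34 lost it with some library, while 0 reversed. No call was lost at a pseudocount of 5 RPM or a mean of at least 10 RPM, 3 were lost without a filter, 6 with voom weights and 2 with the replicate block (at_tR132 in flower, adjusted p = 0.0621, and os_tR244 in root against shoot, 0.0551). Rescaling had the most effect: 29 calls were lost and 12 reversed.

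Members called changed by over 1.5 times as follows. The percent of all tRNAs or fragments called is not given for these settings, so the counts show only how the calls of members moved. After rescaling they were 4 and 6 for tRNA signal in flower and silique, 4 for tRF totals and 1 for fragments in flower, 0 and 2 for tRNA signal in cold root and cold shoot, 1 for tRF totals in cold root, and 16 and 31 for fragments in cold shoot and salt shoot. With voom weights they were 17 and 27 for tRNA signal and fragments in flower, 6 for signal in panicle, 3 and 15 for signal and fragments in cold root, 27 for fragments in salt root, and 0 and 11 for signal and fragments in salt shoot. At a pseudocount of 5 RPM they were 13 for fragments in flower, and 2 and 7 for signal and fragments in cold root. At a mean of at least 10 RPM, which tests fewer fragments, they were 13 in root against shoot, 11 in panicle and 9 in salt shoot. The 3′ share of rice fragments was 58.9% without Tyr.

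Rescaling reversed these log2 folds. In tRNA signal they became -0.78 (at_tR62) and -1.25 (at_tR205) in flower, -0.24 (at_tR142) and -0.41 (at_tR221) in silique, -0.75, -1.33 and -1.30 (os_tR186, os_tR279 and os_tR248) in root against shoot, -0.48 and -0.15 (os_tR186 and os_tR279) in panicle and -0.38 (os_tR186) in cold shoot. In tRF totals they became -0.23 (at_tR221) in silique, 0.027, 0.20 and 0.21 (os_tR186, os_tR170 and os_tR274) in salt root and -0.19 (os_tR108) in salt shoot. Root minus shoot became 0.40 and 0.0078 under cold for os_tR186 in signal and tRF total, and 0.13, 0.18, 0.51 and 0.28 under salt for os_tR81, os_tR279, os_tR248 and os_tR242. The cause was not tested.

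With 1 library left out, members called ranged as follows, again without the percent of all tRNAs or fragments.
For tRNA signal they were 7 to 13 in flower, 9 to 12 in silique, 4 to 5 in root against shoot, 2 to 5 in panicle, 0 to 2 in cold root, 0 to 1 in cold shoot, 0 to 2 in salt root and 0 to 2 in salt shoot.
For tRF totals they were 7 to 11 in flower, 8 to 14 in silique, 6 to 9 in root against shoot, always 11 in panicle, 2 to 7 in cold root, 4 to 6 in cold shoot, 9 to 11 in salt root and 6 to 10 in salt shoot.
For fragments they were 0 to 8 in flower, 3 to 6 in silique, 23 to 47 in root against shoot, 22 to 42 in panicle, 2 to 7 in cold root, 2 to 18 in cold shoot, 7 to 23 in salt root and 11 to 27 in salt shoot.

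The labels give the replicate numbers no shared plant, batch or day, so they were not taken to pair libraries. The correlation of same-numbered deviations from the group means ran over pairs of groups from -0.13 to 0.18 (tRNA signal), -0.08 to 0.34 (tRF totals) and 0.10 to 0.24 (fragments) in Arabidopsis, and from -0.16 to 0.15, -0.24 to 0.28 and 0.05 to 0.16 in rice. The replicate block moved no count of members by over 1.5 times; flower fragments went to 6 calls. Depth limits the tRNA signal of silique and stem, where 1 read is worth up to 43.1 and 25.1 RPM.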
